A study of Mus musculus with 9 samples.

Results

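The genes described here are 10 components of the p53 and mitochondrial apoptosis pathways: Trp53, Cdkn1a, Mdm2, Bax, Bcl2, Bcl2l11, Bbc3, Pmaip1, Ccng1 and Trp53inp1. They were chosen by name, and every probe set that the array annotation assigned to a single one of these symbols was taken. Of the 10 genes, 8 had such a probe set, out of 18194 genes named on the array. Trp53 and Bax were not analysed here. The 8 genes had 22 probe sets, of which 18 had at least 3 of the 9 arrays above 4 (log2) and were tested. A further 4, of which 3 belong to Bcl2 and 1 to Bcl2l11, were too dim to test. RNA came from 9 Affymetrix mouse arrays in 3 groups of 3. All 3 groups were Ainv15 mouse embryonic stem (ES) cells, or cultures derived from them, that carried a doxycycline-inducible Cdx2 gene with a V5 tag. This is 1 engineered line, and none of the groups lacked the construct. ES cells were taken at day 0 without treatment, after growth with LIF over mitomycin-C-treated fibroblasts. Motor neuron cultures were day 5 embryoid bodies given 1 µM retinoic acid and 0.5 µM SAG, a hedgehog agonist, from day 2. Cdx2 and FGF cultures were also taken at day 5. In addition to the same patterning they had received, on day 3 a pulse of 2 µg/ml doxycycline, lasting 6 to 8 hours, and bFGF at 100 ng/ml. Doxycycline, Cdx2 and FGF came together, so their shares in a difference cannot be told apart. The protocol also mentions a later medium with less retinoic acid and agonist, without naming the cultures that received it.

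p53 is a transcription factor that is kept scarce by Mdm2, a ubiquitin ligase which p53 itself induces. When p53 accumulates it can raise Cdkn1a (p21), which arrests the cell cycle, and the BH3-only genes Bbc3 (PUMA) and Pmaip1 (Noxa), which promote cell death. BH3-only proteins, Bcl2l11 (BIM) among them, bind and neutralise survival proteins such as Bcl2, so that Bax and Bak1 can permeabilise the mitochondrion. Pluripotent cells are known for sitting close to the threshold for mitochondrial apoptosis, and developing motor neurons for a wave of programmed death controlled by this family.

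Promoter sequence from RefSeq (GRCm38.p6) is shown for 3 of these genes because it holds at least 1 match to the decamer of the p53 site. The site by which p53 is known to recognise its targets consists of 2 copies of this palindromic decamer. Windows of 250 bases before to 50 bases after a transcription start were searched on both strands for the p53 decamer. They were also searched for the paired site, with at most 1 mismatch and the copies 0 to 13 bases apart. Of the 8 genes, 6 had entries, with 10 windows in all; Pmaip1 and Trp53inp1 had none. A decamer without mismatch lay in 3 of the 10 windows and in 8.36% of all 32851 windows of the same length. The paired site lay in 2 of the 10 windows and in 1.09% of all windows. Adjacent copies with at most 1 mismatch, found in Cdkn1a and Ccng1, lay in 29 windows of the genome, or 0.0883%. Copies 0 to 13 bases apart without mismatch, found in Cdkn1a, lay in 24 windows, or 0.0731%. The stretches below give the matched letters in capitals within 30 bases of flank on either side. That of Cdkn1a spans chr17:29090876-29090977 on the plus strand. Its first decamer begins at position -73 relative to the more upstream transcription start of Cdkn1a. This decamer forms a paired site without mismatch with the decamer at -51, 12 bases further on. The adjacent pair that begins at -51 has 1 mismatch. Cdkn1a had 2 windows, and the other, downstream at chr17:29093519-29093818, held no decamer.
Cdkn1a: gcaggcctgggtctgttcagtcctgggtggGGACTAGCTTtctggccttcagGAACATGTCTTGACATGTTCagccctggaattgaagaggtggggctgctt
Ccng1: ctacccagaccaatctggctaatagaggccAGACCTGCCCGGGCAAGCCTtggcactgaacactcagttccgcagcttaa
Mdm2: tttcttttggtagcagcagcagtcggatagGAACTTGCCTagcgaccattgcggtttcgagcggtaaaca
The stretch of Ccng1 is chr11:40755432-40755511 on the minus strand, with its paired site beginning at -195. For Mdm2, chr10:117710905-117710974 on the minus strand holds a single decamer at -186. These matches describe letters within the windows, and p53 binding was not measured on these arrays.

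Arrays of the motor neuron group correlated at 0.995 to 0.997 and those of the Cdx2 and FGF group at 0.998, while ES arrays correlated at 0.963 to 0.974. The median within-group SD of tested probe sets was 0.402 on the log2 scale in ES cells, against 0.156 and 0.121 in the day 5 groups. ES arrays also differed in control probe sets that read the 3′ and 5′ ends of 1 transcript. The 3′ minus 5′ difference of Actb averaged 2.07 on the log2 scale in ES cells (SD 0.219, n = 3) and -0.04 in both day 5 groups. That of Tfrc averaged 6.25 on ES arrays, and -1.5 and -1.62 on those of motor neuron and of Cdx2 and FGF cultures. The control probe sets for 18S ribosomal RNA differed as well, averaging 6.35 (3′), 11.4 (middle) and 4.10 (5′) on ES arrays while every day 5 array lay between 14.89 and 15.57 for all 3. The part of these control differences in the ES comparisons given here was not tested, and it cannot be told apart from the group. Cdx2 matched the labels, at 2.17 to 2.24 on the 6 arrays without induction and 8.27, 8.99 and 8.59 with it (probe set 1422074_at). Of 10 ES cell markers, 10 were called lower in motor neuron cultures than in ES cells, and of 8 tested motor neuron and ventral progenitor markers 8 were higher. With Cdx2 and FGF, 9 of 10 neuron markers were lower than in motor neuron cultures and 6 of 7 tested markers of mesoderm and smooth muscle were higher. The 10 neuron markers summed to 86600 to 116000 linear units in motor neuron cultures, against 10300 to 11900 with Cdx2 and FGF. The 10 mesoderm markers summed to 234 to 504 and 29100 to 32000. On ES arrays the neuron sum was 10700 to 13400, near that with Cdx2 and FGF, and the mesoderm sum 3190 to 18200. Of those 10 mesoderm markers, 6 were under 4 on every motor neuron array and 3 on every array with Cdx2 and FGF. The 9 fibroblast markers, which a feeder layer would carry, summed to 1370 to 8240 on ES arrays, 55 to 73.6 on motor neuron arrays and 732 to 887 with Cdx2 and FGF, and 1, 8 and 4 of them were under 4 on every array of the group. The cultures were measured in bulk, so that fewer cells of a type and less RNA per cell cannot be told apart in any result below, and the part of this change in cell makeup was not tested.

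The first comparison asks how these genes differ between pluripotent cells and motor neuron cultures. Pmaip1 was at least 104-fold lower in motor neuron cultures, while Bcl2 was 24.8-fold higher by its brightest probe set. Bbc3 was 3.36-fold higher, and probe sets of Bcl2l11, Cdkn1a, Ccng1, Mdm2 and Trp53inp1 were also higher. A second probe set of Mdm2, Bcl2l11 and Trp53inp1 was lower. A probe set was called at an adjusted p under 0.05 (limma, Benjamini-Hochberg over 21557 probe sets) and with a log2 difference of 1 or more in either direction. By this rule 9 of 18 probe sets were higher (50%, against 31.9% of all tested) and 4 were lower (22.2%, against 28%). The median difference of the 18 was 1.41 on the log2 scale, beside 0.1 over all tested probe sets. Groups did not overlap for 10 higher and 5 lower probe sets, where 39.7% and 35.5% of all tested did so. Since 1 gene contributes up to 4 of the 18, the counts are not of independent genes. With 1 probe set per gene, the brightest, 2 of 8 genes were higher (Bcl2 and Bbc3) and 3 lower (Mdm2, Pmaip1 and Trp53inp1), where 25.9% and 30.7% of all genes on the array were so by the same choice of probe set.

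The second comparison asks what Cdx2 induction with FGF changed at day 5. Pmaip1 was higher with Cdx2 and FGF, by at least 5.29-fold, and was the only 1 of the 8 genes called. Of 18 probe sets 1 was higher (5.56%, against 10.9% of all tested) and 0 were lower (against 8.55%) by limma. At an unadjusted p under 0.05, 7 were higher and 1 lower, where 22.3% and 16.8% of all tested were so. Cdkn1a, Mdm2, Ccng1, Bbc3 and Trp53inp1, which are p53 targets as Pmaip1 is, had differences between -0.71 and 1.2 on the log2 scale. None of these was called. The differences were positive for 15 probe sets and negative for 3, with a median of 0.29 beside 0.04 over all tested. Groups did not overlap for 10 higher and 2 lower probe sets, where 34.2% and 26.7% of all tested did so. The fit shares 1 estimate of spread over all 9 arrays, ES arrays included. When only the 6 day 5 arrays were fitted, 2 probe sets were called, of Pmaip1 and of Bcl2 (1457687_at, 1.19, adjusted p = 0.00209, limma). In that fit, and with no minimum difference, an adjusted p under 0.05 was reached by 9 probe sets with a higher level, where 27.6% of all tested did so. It was reached by 2 with a lower level, both of Trp53inp1, where 22.2% of all tested did so. This last setting was chosen after seeing the data.

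The third comparison sets Cdx2 and FGF cultures against ES cells, and shares its arrays with the other two. Of 18 probe sets 11 were higher (61.1%, against 31.4% of all tested) and 3 were lower (16.7%, against 24.7%). With no filter on low values 8 were higher. The lower ones belong to Pmaip1, Mdm2 and Trp53inp1. The median was 1.51 on the log2 scale beside 0.14. Groups did not overlap for 11 higher and 5 lower, where 41.3% and 32.9% of all tested did so.

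**Figure D1:**
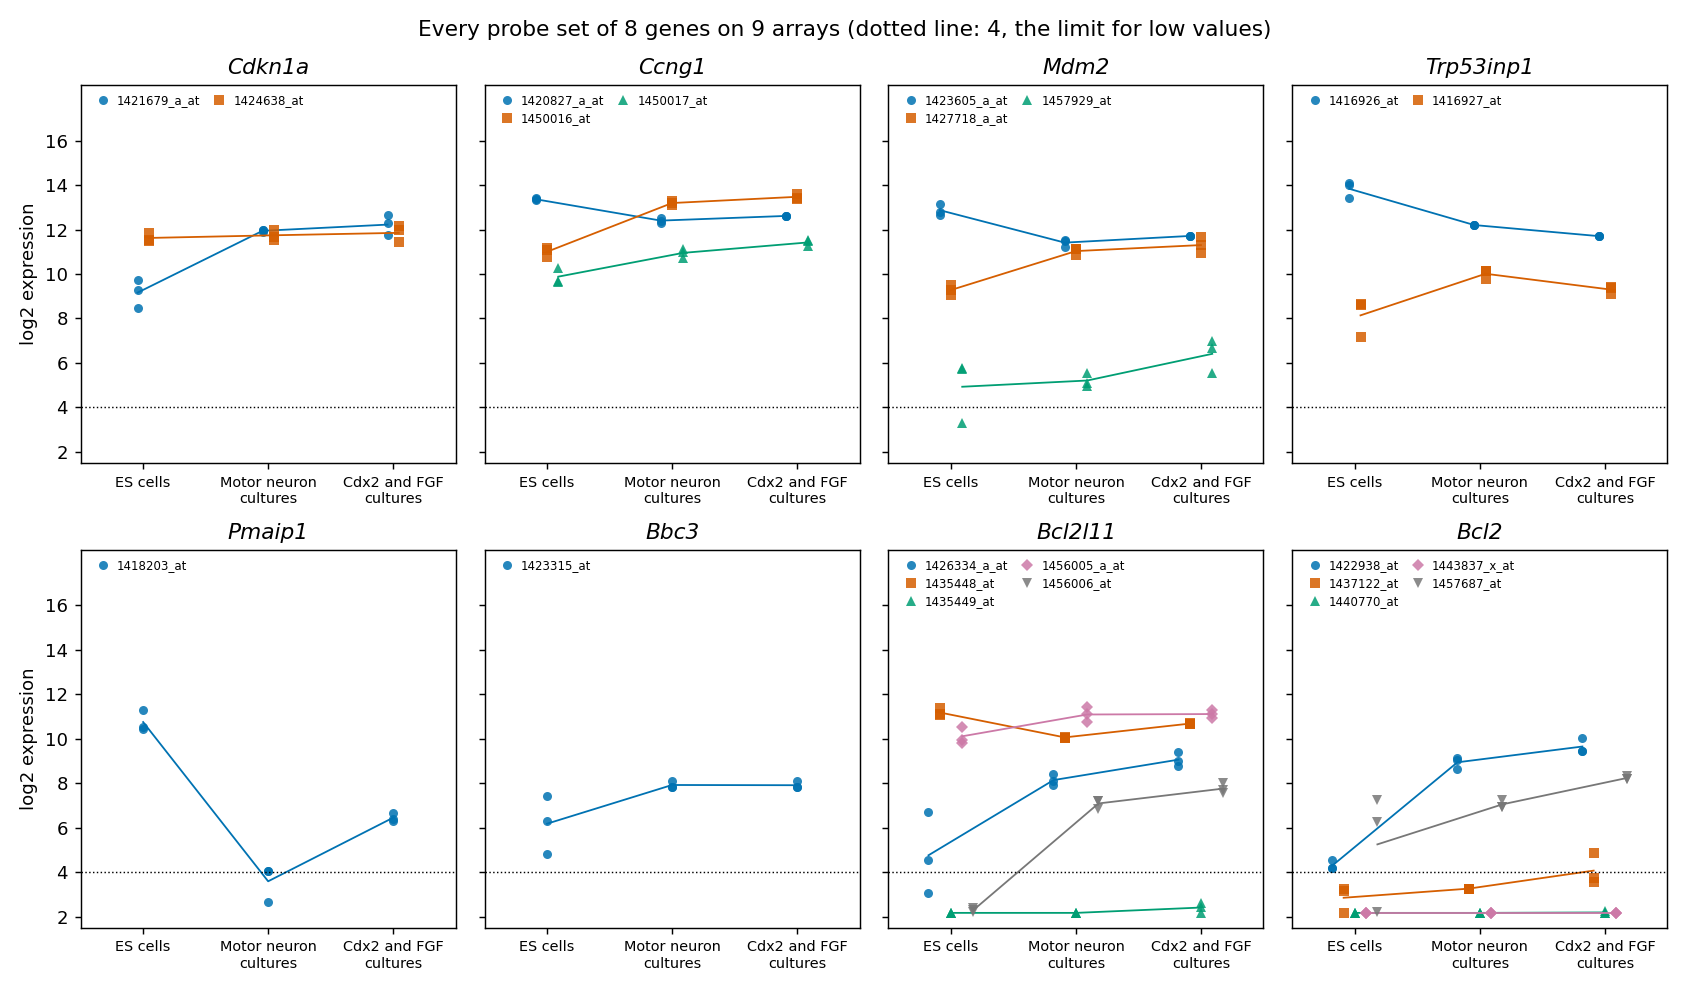
Log2 expression of every probe set of the 8 genes on each of the 9 arrays, 1 panel per gene and 1 symbol per probe set, with 3 arrays in each of the 3 groups and lines joining group means. The dotted line marks 4; Pmaip1 lies between 10.46 and 11.28 on ES arrays, 2.64 and 4.06 on motor neuron arrays, and 6.32 and 6.64 with Cdx2 and FGF.

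Mdm2, the ubiquitin ligase that restrains p53, was measured by 3 probe sets that disagreed on its direction from ES cells. By 1423605_a_at it stood at 12.80, 13.15 and 12.66 on ES arrays, 11.23, 11.49 and 11.51 on motor neuron arrays and 11.70, 11.72 and 11.72 with Cdx2 and FGF, so that all ES arrays were the highest. This was a fall of 1.46 from ES cells to motor neuron cultures (log2 difference -1.46, SE 0.14, adjusted p = 9.89e-06, limma). By 1427718_a_at the ES arrays were the lowest, at 9.30, 9.04 and 9.50, against 10.85, 11.11 and 11.14 on motor neuron arrays and 11.66, 11.30 and 10.95 with Cdx2 and FGF. Here motor neuron cultures exceeded ES cells by 1.75 (SE 0.21, adjusted p = 4.27e-05). The dimmest, 1457929_at, was at 5.73, 3.29 and 5.77 on ES arrays, 4.96, 5.10 and 5.57 on motor neuron arrays and 6.98, 5.57 and 6.69 with Cdx2 and FGF. Its groups overlapped in every comparison and none was called. Cdx2 and FGF cultures minus motor neuron cultures gave 0.30 for 1423605_a_at (95% interval -0.01 to 0.62) and 0.27 for 1427718_a_at (-0.19 to 0.73), with adjusted p of 0.14 and 0.386. Against ES cells the Cdx2 and FGF cultures were 1.16 lower by the first (adjusted p = 5.5e-05) and 2.02 higher by the other (adjusted p = 1.84e-05). The fall by 1423605_a_at between these groups was 0.73, and no longer called, after centring each array on its median.

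Cdkn1a encodes p21, an inhibitor of cyclin-dependent kinases and a classical p53 target. Its brighter probe set, 1424638_at, stood at 11.48, 11.55 and 11.84 on ES arrays, 11.53, 11.68 and 12 on motor neuron arrays and 12.14, 11.96 and 11.45 with Cdx2 and FGF. The 3 groups overlapped, and the differences were 0.12 (95% interval -0.34 to 0.57) for motor neuron cultures minus ES cells and 0.11 (-0.34 to 0.57) for the effect of Cdx2 and FGF. The other, 1421679_a_at, was at 9.74, 9.29 and 8.45 on ES arrays, 11.87, 11.99 and 11.97 on motor neuron arrays and 12.65, 12.27 and 11.74 with Cdx2 and FGF. All 6 day 5 arrays lay above all ES arrays, by 2.78 for motor neuron cultures (SE 0.32, 6.87-fold, adjusted p = 4.21e-05, limma) and by 3.06 with Cdx2 and FGF (SE 0.32, adjusted p = 2.55e-05). Set against each other, the day 5 groups differed by 0.28 (-0.46 to 1.01, adjusted p = 0.605). So the gene differed from ES cells by 1 of its 2 probe sets, and by neither was it called between the day 5 groups. Of 11 markers of dividing cells, 2 were called higher and 0 lower with Cdx2 and FGF than in motor neuron cultures by limma (7 and 0 at an unadjusted p under 0.05), and their part in the levels of Cdkn1a was not tested.

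Ccng1 encodes cyclin G1, a p53 target that acts on the Mdm2 and p53 loop. Its brightest probe set on ES arrays, 1420827_a_at, was at 13.43, 13.32 and 13.35 there, 12.40, 12.28 and 12.53 on motor neuron arrays and 12.61, 12.59 and 12.61 with Cdx2 and FGF. ES arrays were highest, and the difference of -0.96 for motor neuron cultures (SE 0.08, adjusted p = 6.02e-06) stayed under the minimum of 1. By 1450016_at ES cells were lowest, at 11.08, 10.77 and 11.15, against 13.08, 13.21 and 13.29 on motor neuron arrays and 13.61, 13.42 and 13.38 with Cdx2 and FGF. The difference was 2.19 (SE 0.12, 4.57-fold, adjusted p = 2.74e-07) for motor neuron cultures and 2.47 with Cdx2 and FGF (SE 0.12, adjusted p = 1.55e-07). The last, 1450017_at, ran the same way, from 9.69, 9.64 and 10.29 in ES cells to 10.73, 10.97 and 11.14 and to 11.48, 11.53 and 11.24. Its difference of 1.07 for motor neuron cultures (SE 0.20, adjusted p = 0.000909) was 0.95 to 0.98, and not called, without the ES arrays 1 or 2 or motor neuron array 3. All 3 probe sets separated the day 5 groups by small margins, 0.20, 0.28 and 0.47 above motor neuron cultures with Cdx2 and FGF, with adjusted p of 0.109, 0.124 and 0.113.

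Trp53inp1, a p53-induced stress protein that promotes p53 activity, gave opposite calls by its 2 probe sets. Probe set 1416926_at was at 14.02, 14.07 and 13.41 on ES arrays, 12.22, 12.18 and 12.20 on motor neuron arrays and 11.70, 11.71 and 11.70 with Cdx2 and FGF, so the 3 groups were apart and ordered. The fall from ES cells was 1.63 in motor neuron cultures (log2 difference -1.63, SE 0.16, adjusted p = 1.13e-05, limma) and 2.13 with Cdx2 and FGF (-2.13, adjusted p = 2.16e-06). The step between the day 5 groups was -0.50 (95% interval -0.86 to -0.14, adjusted p = 0.0405), under the minimum of 1. By 1416927_at the ES arrays were lowest, at 8.65, 8.61 and 7.17, motor neuron cultures highest at 10.12, 9.79 and 10.13, and the Cdx2 and FGF arrays between them at 9.39, 9.40 and 9.11. Motor neuron cultures were 1.87 higher than ES cells (SE 0.37, adjusted p = 0.00127). The value for Cdx2 and FGF cultures, 1.16 above ES cells (SE 0.37, adjusted p = 0.0181), depended on ES array 3, without which it was 0.67. That call also ended without Cdx2 and FGF array 1 or 2 (adjusted p = 0.0546 and 0.056) and with no filter on low values (0.0677). For Cdx2 and FGF against motor neuron cultures this probe set gave -0.71 (-1.54 to 0.12, adjusted p = 0.191). Trp53inp1 was the 1 gene here whose tested probe sets were all lower on each Cdx2 and FGF array than on each motor neuron array.

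Pmaip1 encodes Noxa, a BH3-only protein that neutralises Mcl1 and is known for its high expression in pluripotent cells. Its only probe set, 1418203_at, was at 10.51, 11.28 and 10.46 on ES arrays, 2.64, 4.06 and 4.06 on motor neuron arrays and 6.38, 6.64 and 6.32 with Cdx2 and FGF. The 3 groups did not overlap, and 1 motor neuron array lay below 4, with the other two just above it. Motor neuron cultures were lower than ES cells by a log2 difference of -7.16 (SE 0.41, adjusted p = 3.58e-07, limma). With values under 4 raised to 4 this is at least 104-fold. Cdx2 and FGF cultures exceeded motor neuron cultures by 2.86 (95% interval 1.92 to 3.79, adjusted p = 0.000836), or at least 5.29-fold, and were 19.7-fold below ES cells (-4.30, adjusted p = 1.26e-05). The first and second of these share the motor neuron arrays. Summed ES cell markers were 4520 to 4740 on motor neuron arrays and 7000 to 7690 with Cdx2 and FGF, against 105000 to 113000 on ES arrays. Of these markers, 8 of the 10 were under 4 on every array of each day 5 group. The remaining ones were Sox2, which averaged 12.11 in motor neuron cultures and 12.80 with Cdx2 and FGF, and Dppa5a, at 7.21 and 6.76. Sox2 thus made up most of both day 5 sums and of the step between them, while Dppa5a was not higher with Cdx2 and FGF. Of the 10, 0 were called between the day 5 groups (1 higher and 0 lower at an unadjusted p under 0.05). The part of remaining ES cells in the level of Pmaip1 was not tested.

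Bbc3 encodes PUMA, a BH3-only protein that binds every survival member of the family and is a direct p53 target. Its single probe set, 1423315_at, was at 7.41, 6.30 and 4.83 on ES arrays, 7.85, 8.10 and 7.83 on motor neuron arrays and 8.09, 7.83 and 7.83 with Cdx2 and FGF. The 6 day 5 arrays lay within 7.83 and 8.10 and all above the scattered ES arrays. Motor neuron cultures were 1.75 higher than ES cells (SE 0.54, adjusted p = 0.0148, limma), and Cdx2 and FGF cultures 1.74 higher (SE 0.54, adjusted p = 0.016). ES arrays 1 and 3 set the size, since the first difference was 2.36 without array 1 and 1.07 without array 3, and the second 2.35 and 1.06. Without Cdx2 and FGF array 1 the second was 1.65 with an adjusted p of 0.0515. With no filter on low values both calls ended, at adjusted p of 0.062 and 0.0667. Between the day 5 groups the difference was -0.01, with a 95% interval from -1.22 to 1.20 that includes 1 and -1. Pmaip1 and Bbc3, which share a role, thus had opposite directions from ES cells.

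Bcl2l11 encodes BIM, the BH3-only protein linked to trophic factor withdrawal in neurons and induced mainly by factors other than p53. Of 5 probe sets 4 were tested. By 1456006_at it was at 2.32, 2.37 and 2.20 on ES arrays, all under 4, and at 6.85, 7.20 and 7.21 on motor neuron arrays and 7.58, 7.71 and 7.99 with Cdx2 and FGF. The rise was at least 8.49-fold in motor neuron cultures (adjusted p = 8.3e-08, limma) and at least 13.6-fold with Cdx2 and FGF (adjusted p = 4.56e-08). By 1426334_a_at the ES arrays were scattered, at 6.69, 3.06 and 4.53, below 7.92, 8.41 and 8.10 on motor neuron arrays and 8.99, 8.79 and 9.41 with Cdx2 and FGF. The difference for motor neuron cultures was 3.38 (SE 0.74, adjusted p = 0.00245), with 4.35 without ES array 1 and 2.53 without ES array 2. For Cdx2 and FGF cultures minus ES cells it was 4.30 (adjusted p = 0.000603), with 5.27 and 3.46 without those arrays.

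The bright probe set 1435448_at of Bcl2l11 went the other way. It stood at 11.37, 11.12 and 11.05 on ES arrays, 10.04, 10.10 and 10.05 on motor neuron arrays and 10.65, 10.72 and 10.65 with Cdx2 and FGF. ES cells were highest and motor neuron cultures lowest, by -1.12 (SE 0.12, adjusted p = 3e-05), which became -0.70 and was not called after median centring. The brightest, 1456005_a_at, was at 10.54, 9.95 and 9.83, then 11.11, 10.75 and 11.41, then 10.92, 11.12 and 11.27, with ES cells lowest. Its difference from ES cells was 0.98 in motor neuron cultures (adjusted p = 0.00354) and 1.00 with Cdx2 and FGF (adjusted p = 0.00343), on either side of the minimum. The second was called, and was 0.86 to 0.99 and not called without ES array 2 or 3 or Cdx2 and FGF array 2 or 3. Between the day 5 groups, 1435448_at and 1456006_at were higher with Cdx2 and FGF by 0.62 (95% interval 0.34 to 0.90, adjusted p = 0.00538) and 0.68 (0.18 to 1.17, adjusted p = 0.0461), both under the minimum. The other two gave 0.92 (adjusted p = 0.418) and 0.02 (adjusted p = 1). The untested 1435449_at was at 2.17 on ES arrays and motor neuron cultures and 2.17 to 2.62 with Cdx2 and FGF.

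Bcl2, the founding survival protein of the family, was measured by 5 probe sets, of which 2 were tested. By 1422938_at it was close to the low limit on ES arrays, at 4.54, 4.19 and 4.19, and at 8.63, 9.14 and 9.04 on motor neuron arrays and 9.46, 10.02 and 9.47 with Cdx2 and FGF. All 3 groups were apart. The difference from ES cells was 4.63 in motor neuron cultures (SE 0.25, 24.8-fold, adjusted p = 2.38e-07, limma) and 5.35 with Cdx2 and FGF (SE 0.25, 40.8-fold, adjusted p = 1.16e-07). Cdx2 and FGF cultures minus motor neuron cultures gave 0.71 (95% interval 0.15 to 1.28, adjusted p = 0.0616). By 1457687_at the ES arrays spanned 2.23, 6.24 and 7.26, while motor neuron cultures were at 6.94, 7.26 and 6.94 and Cdx2 and FGF cultures at 8.20, 8.34 and 8.19. ES array 1 was the dimmest by far. Motor neuron cultures minus ES cells gave 1.80 (SE 1.05, adjusted p = 0.145), with the groups overlapping. Cdx2 and FGF cultures were 2.99 above ES cells (SE 1.05, adjusted p = 0.0277), with 1.49 without ES array 1 and 4 without ES array 3. That call ended without any 1 of the 3 Cdx2 and FGF arrays (adjusted p = 0.0635 to 0.07) and with no filter on low values (0.11). Of the untested probe sets, 1437122_at was at 2.17 to 3.24 on ES arrays, 3.26 on motor neuron arrays and 3.58, 4.87 and 3.76 with Cdx2 and FGF, and the other two stayed at 2.17 to 2.24.

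**Figure D2:**
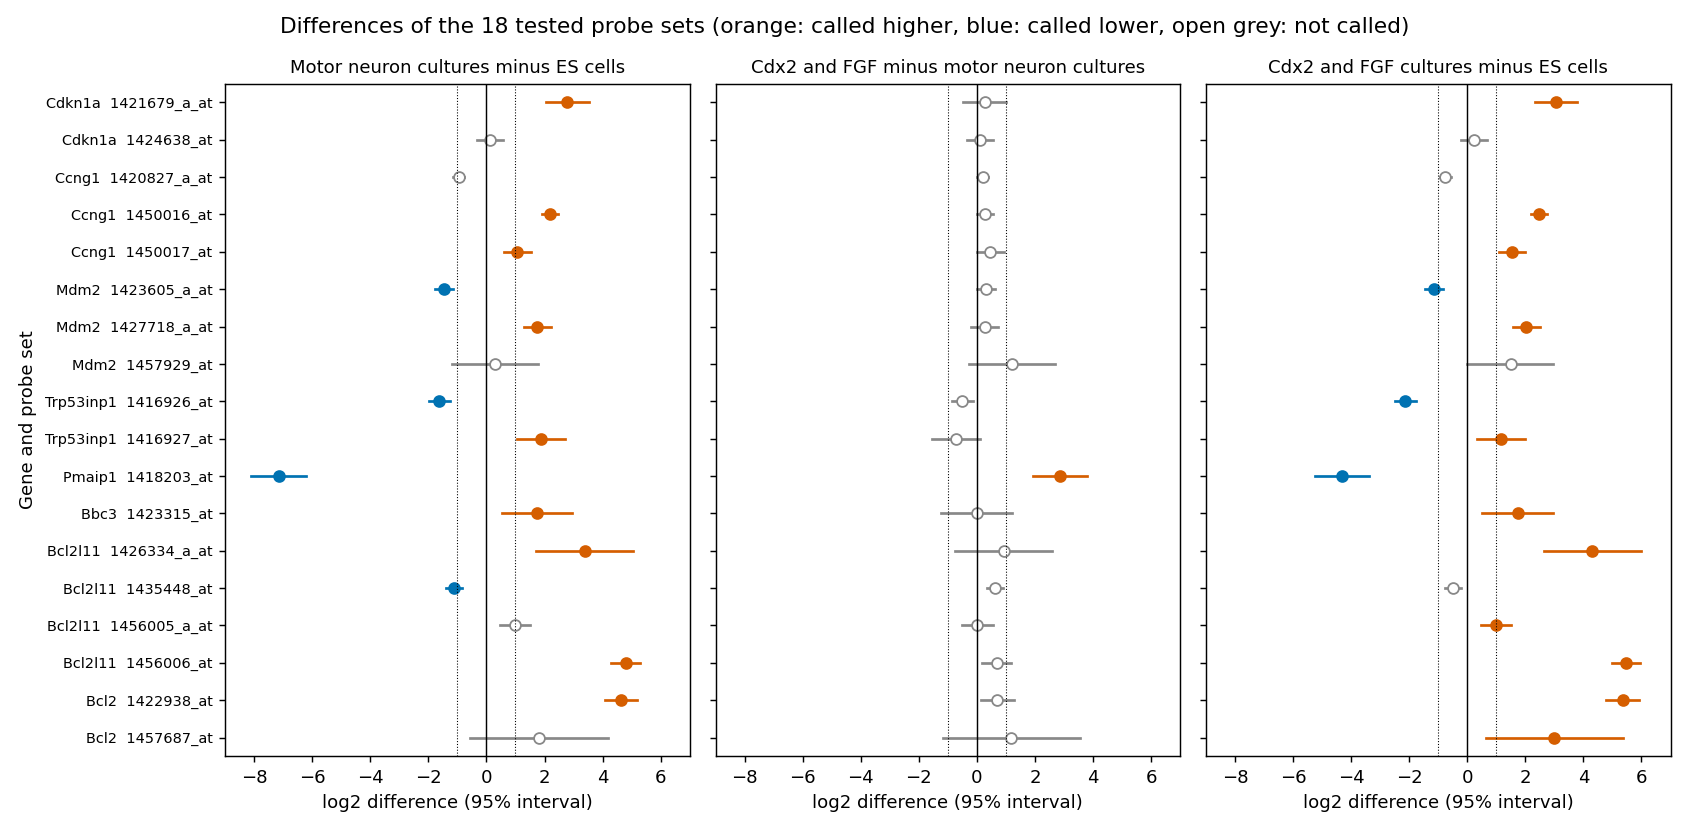
Log2 differences of the 18 tested probe sets with 95% intervals in the 3 comparisons (first group minus second, limma fit over 9 arrays); orange was called higher, blue lower and open grey not called, and dotted lines mark 1 and -1. For Cdx2 and FGF against motor neuron cultures Pmaip1, at 2.86, is the only coloured point, while the ES comparisons have points on both sides of 0.

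Probe sets of 1 gene that pointed opposite ways were a feature of the ES comparisons. Mdm2, Bcl2l11 and Trp53inp1, 3 of the 6 genes with more than 1 tested probe set, had a call in each direction when motor neuron cultures were set against ES cells. Over the array, 782 of 5177 such genes (15.1%) did so. For Cdx2 and FGF cultures minus ES cells the count was 2 of 6, beside 15.2%. For the effect of Cdx2 and FGF it was 0 of 6, beside 0.174%. The distance between 2 probe sets of a gene on the same array was also compared between groups. It moves when only 1 of them does, as for Cdkn1a, so it gives no direction by itself. Probe set 1423605_a_at of Mdm2 exceeded 1427718_a_at by 3.50, 4.11 and 3.15 on the ES arrays, by 0.38, 0.37 and 0.36 on the motor neuron arrays and by 0.04, 0.42 and 0.77 with Cdx2 and FGF. For Ccng1 the distance from 1420827_a_at to 1450016_at was 2.35, 2.55 and 2.20 in ES cells and turned negative in both day 5 groups, at -0.68 to -0.93 and -0.76 to -1. For Trp53inp1, 1416926_at exceeded 1416927_at by 5.36, 5.47 and 6.24 in ES cells and by 2.07 to 2.59 on the 6 day 5 arrays. For Cdkn1a, the level by 1421679_a_at minus that by 1424638_at was -1.74, -2.25 and -3.39 in ES cells, and ran from -0.03 to 0.51 at day 5. For Bcl2l11, 1435448_at minus 1456005_a_at was 0.83, 1.17 and 1.22 on ES arrays, -1.07, -0.65 and -1.37 on motor neuron arrays and -0.27, -0.40 and -0.62 with Cdx2 and FGF, so all 3 groups were apart. For Bcl2, 1422938_at minus 1457687_at was 2.30, -2.06 and -3.08 on ES arrays, 1.68 to 2.10 on motor neuron arrays and 1.26 to 1.68 with Cdx2 and FGF, and ES arrays lay on both sides of the day 5 arrays. The 3′ minus 5′ distances of the Actb and Tfrc controls also set ES arrays apart, as the distances given above did for every gene but Bcl2. These control distances fell from 2.07 and 6.25 on ES arrays to -0.04 and -1.5 on motor neuron arrays, while that of Gapdh went from 0.80 to 0.62. As subtracted here, the distances of Mdm2, Ccng1, Trp53inp1 and Bcl2l11 fell as well and that of Cdkn1a rose. The part of the control differences in the distances of the genes was not tested. For the 2 day 5 groups the distances of Mdm2, Ccng1, Trp53inp1 and Cdkn1a had overlapping ranges. Those of Bcl2 met at 1.68, and those of Bcl2l11 did not overlap. Only 1 pair per gene is given above. Among the other pairs, 1426334_a_at minus 1456006_at of Bcl2l11 and 1427718_a_at minus 1457929_at of Mdm2 overlapped between ES and day 5 arrays. The rest did not.

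**Figure D3:**
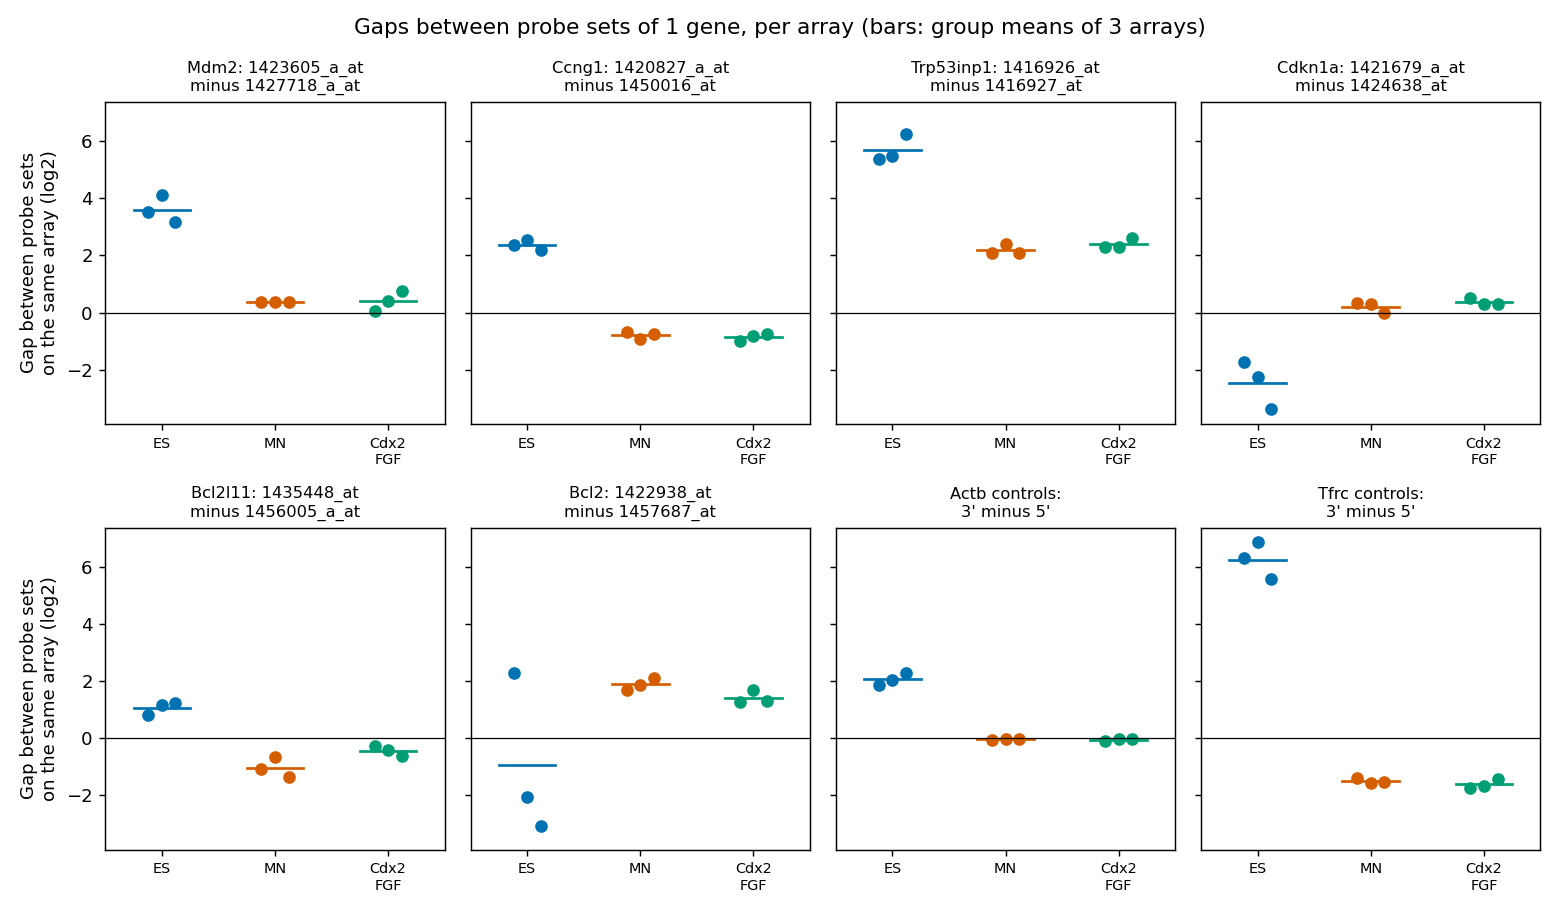
Gap between 2 probe sets of 1 gene on the same array, in log2 units, for 6 genes (their 2 brightest probe sets) and for the 3′ and 5′ control probe sets of Actb and Tfrc; points are arrays and bars are means of 3. ES arrays stand apart from both day 5 groups for Mdm2, Ccng1, Trp53inp1, Cdkn1a, Bcl2l11, Actb and Tfrc but not for Bcl2, where they run from -3.08 to 2.30; the day 5 groups are apart from each other for Bcl2l11.

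The other genes of the pathway were described by 6 lists, each gene by its probe set with the highest mean. When motor neuron cultures were set against ES cells, 15 of 78 tested genes were higher and 27 lower (19.2% and 34.6%, beside 25.9% and 30.7% of all genes by the same choice of probe set). After median centring, 22 were higher and 15 lower. Among other p53 targets 4 of 28 were higher and 10 lower. Perp, a membrane protein of p53-dependent death and of cell junctions, was at 12.42, 13 and 13.04 on ES arrays and 3.96, 3.73 and 3.73 on those of motor neuron cultures, at least 452-fold lower. Ephx1, an epoxide hydrolase, was at least 26.7-fold lower and Rprm, a G2 arrest protein, was 58-fold higher (5.14 to 11). Of p53 regulators 3 of 18 were higher and 10 lower. Pml, an organiser of nuclear bodies, was lower (-5.95), as were the deacetylase Sirt1 (-4.08) and the checkpoint kinase Chek2 (-2.94). Mdm4, the partner of Mdm2, was lower (-1.73, SE 0.28, adjusted p = 0.000418, limma), while its second tested probe set gave -0.73 and was not called. Trp63 and Trp73, the relatives of p53, were at 2.17 to 3.22 on all 9 arrays and were not tested.

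By their leading probe sets, Bcl2l1, Bcl2l2, Mcl1 and Bak1 differed less between ES cells and motor neuron cultures than Bcl2 did (4.63). This contrast was not tested, and the second tested probe set of Bcl2 gave 1.80 and was not called. In the list of other BCL-2 family genes, 1 of 10 tested genes was higher and 1 lower. Bcl2l1 gave 0.38 (adjusted p = 0.147), with another probe set at least 4.92-fold higher (adjusted p = 0.0319). Bcl2l2 gave 0.70 (adjusted p = 0.0581). Mcl1, the survival protein that Noxa binds, gave -0.87 (SE 0.07), under the minimum, while 2 of its other probe sets were called lower at -1.16 and -1.33. Bak1, an effector of permeabilisation, gave 0.23 (adjusted p = 0.117). Bid, the BH3-only link from death receptors, was lower (-4.38, SE 0.40, adjusted p = 8.12e-06), and Bad was higher by 1.54. Downstream, 2 of 12 apoptosome and caspase genes were higher and 4 lower. Diablo, which frees caspases from their inhibitors, was higher by 2.12 and Casp6 by 1.96. Casp9, the initiator caspase, was lower (-1.41) as was Apaf1, its scaffold (-1.30). A second probe set of each was higher, at least 1.99-fold for Casp9 and at least 23.7-fold for Apaf1, and both falls lost the call after median centring (-0.99 and -0.87). In the death receptor list 2 of 6 were higher and 3 lower, with Fadd higher by 3.30, Traf2 by at least 4.1-fold and Cflar, an inhibitor of caspase activation, lower (-1.34). The call of Cflar ended without motor neuron array 1 or 3 (adjusted p = 0.0712 and 0.0817) and without ES array 2 (-0.71). Of CDK inhibitors other than Cdkn1a, 3 of 6 were higher and 1 lower. Cdkn1c was at 6.12, 4.32 and 8.95 on ES arrays and 12.42, 12.25 and 12.13 on those of motor neuron cultures, a difference of 5.80 (SE 0.91), and Cdkn2d was 4.44 higher. Cdkn2b was at least 6.59-fold lower. Cdkn1b gave -0.54 (adjusted p = 0.0632) by 1 probe set and was higher by 3.43 by another.

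Between the day 5 groups 6 of the 78 genes were higher with Cdx2 and FGF and 6 lower (7.69% each, beside 11.1% and 8.53% of all genes). Of other p53 targets 3 of 28 were higher and 2 lower. Perp was at 8.84, 8.65 and 8.13 with Cdx2 and FGF, at least 23.2-fold above motor neuron cultures (4.73, adjusted p = 1.82e-06, limma) and 19.4-fold below ES cells. Its order over the 3 groups was that of Pmaip1. Tnfrsf10b, a death receptor induced by p53, was at 4.87, 5.41 and 5.77 in motor neuron cultures and 9.87, 9.66 and 9.18 with Cdx2 and FGF (4.22, adjusted p = 0.00299), and its second probe set was at least 20.9-fold higher. Plk3, a stress kinase, was lower (-2.62). Of p53 regulators 2 of 18 were higher and 1 lower. Pml was higher by 2.18 (0.27 and not called by its other tested probe set), Hipk2, a kinase that phosphorylates p53, was lower (-1.19), and Chek2 was higher by 1.00. The call of Chek2 ended without motor neuron array 1 or Cdx2 and FGF array 2 or 3, at 0.73 to 0.98. Mdm4 gave 0.26 (adjusted p = 0.574).

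None of the 10 other BCL-2 family genes was called between the day 5 groups by limma (0 of 10, with 2 higher and 1 lower at an unadjusted p under 0.05, where 23.7% and 17.8% of all genes were so). Bcl2l1 gave -0.25, Bcl2l2 -0.42, Mcl1 -0.30, Bak1 0.54 and Bid -0.13. The 12 apoptosome and caspase genes also had 0 calls by limma (3 higher and 2 lower at an unadjusted p under 0.05), with Casp9 at -0.29 and Apaf1 at 0.74. In the death receptor list 2 of 6 were higher, Tnfrsf10b and Tnfrsf1a (1.84), and 1 lower, the adaptor Tradd (-1.14). Tradd was not called without Cdx2 and FGF array 3 (-0.99). Of CDK inhibitors 0 of 6 were higher and 2 lower, Cdkn2c (-1.51) and Cdkn2d (-1.42), with Cdkn1c at 1.23 (adjusted p = 0.369) and Cdkn1b at -0.62 (adjusted p = 0.0823). The call of Cdkn2d ended without any 1 of motor neuron arrays 1 and 2 and the 3 Cdx2 and FGF arrays (adjusted p = 0.0613 to 0.0823). Against ES cells 17 of 78 were higher and 22 lower with Cdx2 and FGF (21.8% and 28.2%, beside 25.4% and 27.2%), and 25 higher and 17 lower after median centring. Rprm was higher by 5.39, Fadd by 3.59 and Cdkn1c by 7.04. Ephx1 and Sfn were at least 26.7-fold and at least 25.4-fold lower.

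**Figure D4:**
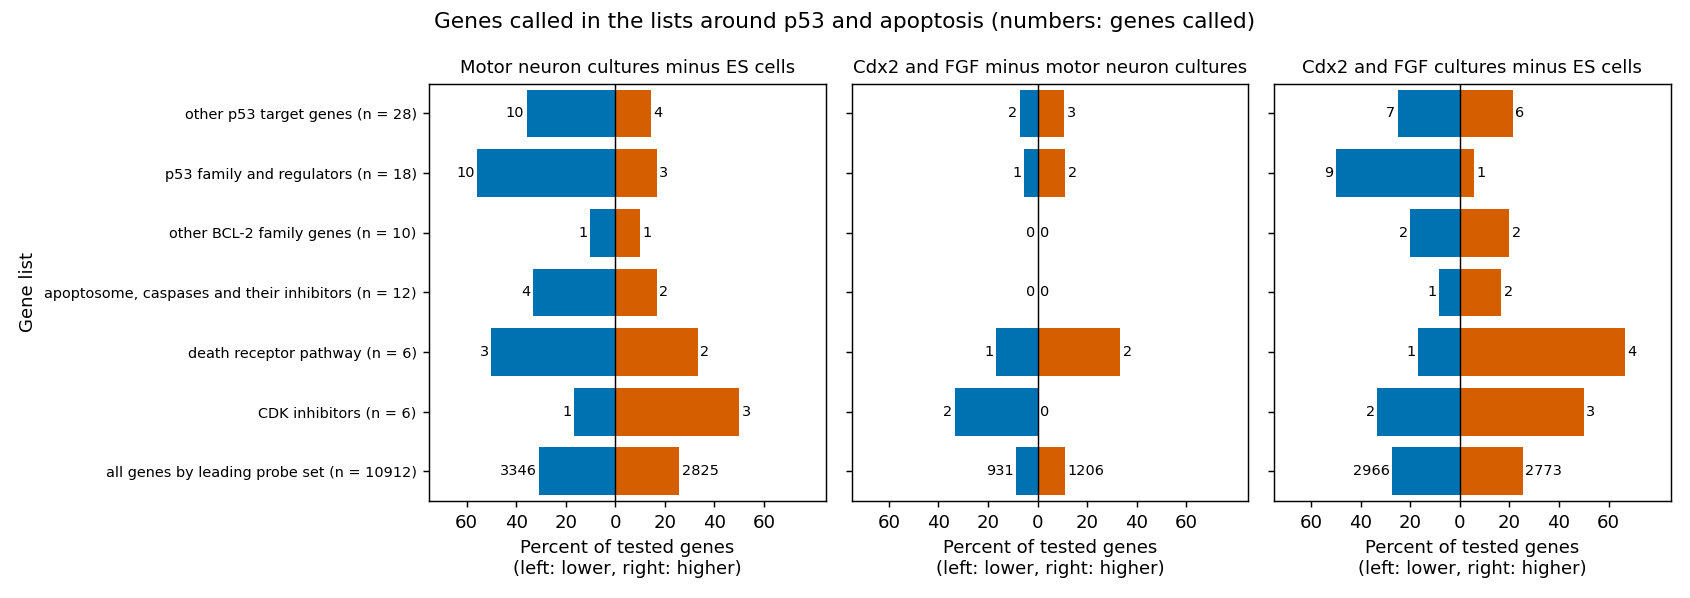
Percent of tested genes called higher (right) and lower (left) in each of 6 lists and over all genes, in the 3 comparisons; numbers beside the bars are genes called. In the middle panel the BCL-2 family list and the apoptosome and caspase list have 0 calls, and 6 genes over all lists are higher and 6 lower.

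Genes were ranked by how near their profile over the 9 arrays lay to that of each member, as a description. The measure was the root mean square distance of centred log2 values. Each member was represented by its leading probe set and every other gene by its closest tested probe set. Nearest to Pmaip1 were Sgms1, at 0.394, and Ubfd1, at 0.438. Bcl2 (1422938_at) lay nearest to Bche at 0.217 and Acsl4 at 0.225, and Bbc3 nearest to Tgs1 at 0.173. For Mdm2 (1423605_a_at) they were Ralgapa1 at 0.0606 and Litaf at 0.0616, and for Ccng1 (1420827_a_at) Timm8a1 at 0.0715. Trp53inp1 (1416926_at) lay nearest to C9orf72 at 0.105, Bcl2l11 (1456005_a_at) to Ccni at 0.155 and Cdkn1a (1424638_at) to Safb2 at 0.151. The 8 genes themselves were left out of this ranking, so it does not show how near they lay to each other. These profiles all run over the same 9 arrays, with 3 in each group, and no test is attached to them.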

How the data were processed

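The authors deposited log2 expression per probe set; GCRMA and limma are named, without versions, in the submitters' processing notes, and RNA was amplified with a NuGEN Ovation kit per the labels' protocols. The values, whose range set the log2 scale here, ran from 2.1653 to 16.12. No further normalization was applied, and the small number of arrays limits the precision. Of 45101 probe sets, 34958 named 1 gene, 932 several and 9211 none. The fit used limma 3.58.1 (lmFit with a mean for each group over all 9 arrays, eBayes with an intensity trend, 6 residual degrees of freedom) in R 4.3.3 and tested on simulated data, over the 21557 probe sets that exceeded 4 on at least 3 arrays. Benjamini-Hochberg adjustment ran over all of them, and calls also needed a log2 difference of 1 or more in size. Standard errors and 95% intervals come from this fit. Folds with a dim array are lower bounds, with values under 4 raised to 4. Nothing in the labels says that arrays of a group came from separate cultures; the p-values then describe only how these arrays vary, which may be technical.

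The members, the 6 pathway lists and the 6 marker lists were chosen with earlier results of these data known. Named genes were every member, up to 3 called genes per list and comparison with the largest difference among non-overlapping groups, and a fixed set of close relatives of members. Alternatives were another normalization, centring, filters, other variance priors, array weights, only the arrays compared, 1 probe set per gene, no minimum difference, a replicate block and leaving out each array.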

Additional observations from a re-analysis of the deposited data

How the results depend on the processing

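Median centring of each array moved the median of all tested probe sets by 0.43 for motor neuron cultures minus ES cells and by 0.44 for Cdx2 and FGF cultures minus ES cells, and by 0.01 between the day 5 groups. The split of higher and lower calls over all probe sets went from 6882 and 6027 to 8484 and 4720 in the first and from 6765 and 5324 to 8599 and 3987 in the second (53.3% to 64.3% and 56% to 68.3% higher), and pathway genes higher and lower went from 15 and 27 to 22 and 15 in the first and from 17 and 22 to 25 and 17 in the second. With 1 probe set per gene, relative to ES cells 2 members were higher in motor neuron cultures and 3 with Cdx2 and FGF, and over all genes 2826 and 3346 were higher and lower in the first, 1220 and 939 between the day 5 groups and 2774 and 2971 in the last. Fewer features are counted there by construction. For Cdx2 and FGF minus motor neuron cultures, higher member probe sets numbered 3 with array weights and 2 with only the 6 arrays compared, where ES arrays carry less or no weight. With no minimum difference they numbered 3, with 1 lower, 10 pathway genes and 3608 of all probe sets higher, and 5 members were lower in Cdx2 and FGF cultures than in ES cells. Both changes together, chosen after seeing the data, gave 9 higher and 2 lower. Leaving out 1 array gave 8 to 10 higher members for motor neuron cultures, 8 to 12 for Cdx2 and FGF cultures against ES cells, and 1 between the day 5 groups each time. No label says whether the replicate numbers pair the arrays. Same-numbered arrays of 2 groups correlated at -0.0275 to 0.106 in their deviations, and different-numbered ones at -0.14 to 0.0647. With 3 arrays per group these values cannot decide whether the arrays were paired. With the replicate block, members higher and lower were 9 and 4, 1 and 0, and 12 and 3, against 11 and 3 without it in the last. No direction of a named member call turned under these alternatives. The wide ES spread limits what the comparisons with ES cells resolve.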
